A study of Mus musculus with 12 samples.

Results

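The cytosolic ribosomal protein genes encode the proteins of the large and small subunits of the ribosome that translates nuclear mRNA. They were taken by symbol among the rows with a mean of 100 or more exon reads over 12 liver libraries. The names are Rpl or Rps with a number, optionally a, l, x or y and further digits, Rplp0 to Rplp2 and Rpsa. A name such as Rpl36al does not match this pattern. This left 80 of 48440 rows, 48 of the large and 32 of the small subunit. The livers came from male C57BL/6 mice aged 8 weeks, on chow and a cycle of 12 h of light and 12 h of dark. Wild-type mice (WT) were compared with transgenic mice overexpressing E4BP4 in the liver (TG), in each case shortly after lights on (ZT2) or shortly after lights off (ZT14), with 3 libraries in each of the 4 groups. ZT counts hours from lights on. The promoter that drives the transgene is not given in the labels. Whether the 3 samples of a group were separate animals is not stated in the labels. The p-values therefore describe the spread among these samples alone, and part of it may be technical.

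Ribosomal protein mRNAs are abundant and mostly short, and they begin with a 5′ terminal oligopyrimidine (TOP) tract, a C followed by a run of C and T at the transcription start. Through this tract their translation follows nutrient signals, with mTORC1 as the kinase complex that relieves repression by the TOP-binding protein LARP1. In mouse liver, ribosome production follows the daily feeding cycle. E4BP4, encoded by Nfil3, is a repressor that binds D-box elements, which the clock-controlled PAR bZIP activators also bind.

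The starts of the genes on which the results turn are shown first, so that starts with and without a marked tract can be compared. Among them 1 start has the exact letters TATAAA. Other forms of the TATA box were not searched for, and TATATAAG in the Rps18 window is therefore not marked. No tract was marked in Rpl7l1 or at the nearer start of Rpl22. Runs that begin farther from the annotated start, such as ctcctccctttccc upstream in the nearer Rpl22 window, were not searched for and are not marked. The CTTCT marked at the farther Rpl22 start lies wholly before that start. An unmarked start may therefore still have a tract. Promoters came from RefSeq (build GRCm38.p6), which matched 60 of the 80 genes with 71 annotated starts. Each line runs 5′ to 3′ on the coding strand, from 70 bases before the start through 20 bases from it on. Capitals mark TATAAA, or the longest C followed by at least 4 bases of C or T that begins within 10 bases of the start. The first is the paralogue Rpl22l1 (chr3:28805438-28805527, plus strand), the next pair are the annotated starts of Rpl22 (chr4:152325656-152325745 and chr4:152324366-152324455, plus strand), and then come Rpl27a (chr7:109519125-109519214, plus strand), Rpl7l1 (chr17:46782637-46782726, minus strand), Rps18 (chr17:33955646-33955735, minus strand) and Rps6 (chr4:86857348-86857437, minus strand).
Rpl22l1: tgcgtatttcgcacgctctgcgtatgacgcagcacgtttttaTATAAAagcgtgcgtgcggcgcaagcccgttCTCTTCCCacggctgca
Rpl22, nearer start: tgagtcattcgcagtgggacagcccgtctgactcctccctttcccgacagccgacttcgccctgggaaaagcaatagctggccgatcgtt
Rpl22, farther start: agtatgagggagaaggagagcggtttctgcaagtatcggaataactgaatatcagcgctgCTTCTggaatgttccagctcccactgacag
Rpl27a: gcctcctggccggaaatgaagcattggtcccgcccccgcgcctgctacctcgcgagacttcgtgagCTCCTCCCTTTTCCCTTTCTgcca
Rpl7l1: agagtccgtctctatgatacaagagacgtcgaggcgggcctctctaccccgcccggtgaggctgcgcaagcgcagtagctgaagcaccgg
Rps18: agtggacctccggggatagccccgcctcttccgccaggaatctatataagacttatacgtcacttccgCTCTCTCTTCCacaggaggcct
Rps6: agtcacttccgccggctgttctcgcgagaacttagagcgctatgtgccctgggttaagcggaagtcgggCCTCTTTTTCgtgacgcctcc

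A TOP-like start was found in 36 of the 60 genes (60%), against 34.4% of the 27025 genes in the same table. A start whose annotated base was itself the C of such a run was found in 13 genes (21.7%), against 3.01%. CCGGAAG, the core bound by ETS factors such as GABP, occurred on either strand in 25 genes (41.7%), against 9.93%, and AAGATGG, a YY1 core, in 10 genes (16.7%), against 7.28%. The E-box CACGTG was present in 6 genes (10%), against 8.09%. The D-box forms TTACGTAA and TTATGTAA were not found on either strand in any of the 60 genes, against 1.23% of all genes for either form, which says only that these letters are not in windows of 300 bases. A TATAAA on the coding strand that begins 20 to 40 bases before the start was found in 1 gene, Rpl22l1 (1.67%), against 2.41%. The shares were not adjusted for base content: median GC was 58.7% in the members' windows and 52.7% over all windows. Matches are descriptions of sequence and do not show binding.

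Total gene reads per library ran from 16035121 to 23981021, and 9.79% to 11.9% of them lay in introns. Summed exon reads of 8 hepatocyte markers, among them Alb and Ttr, came to between 76051 and 97562 CPM (exon read counts scaled to library size and TMM factor) in every library, and none was at 0. Nfil3 exon reads stood at 47.7, 28.4 and 36.5 CPM in ZT2 WT, 74.1, 70.9 and 62.8 in ZT2 TG, 28.0, 39.9 and 25.1 in ZT14 WT, and 67.9, 102 and 85.2 in ZT14 TG, so that every TG library lay above every WT library. The log2 fold change of TG against WT was 0.88 (adjusted p = 0.247, SE 0.21) at ZT2 and 1.46 (adjusted p = 0.0139, SE 0.21) at ZT14 by edgeR's quasi-likelihood test with Benjamini-Hochberg adjustment.

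Levels spanned a wide range within the family. Mean RPKM, the authors' exon reads scaled to exon length and to gene reads of the library, ran from 8.37 for Rpl36a to 545 for Rplp1, a 65.1-fold span. Rplp1, an acidic protein of the stalk that recruits translation factors, stood at 573 ± 27.8 in ZT2 WT, 577 ± 39.8 in ZT2 TG, 562 ± 42.4 in ZT14 WT and 470 ± 88.8 in ZT14 TG (RPKM, SD, n = 3 each). It was followed by Rps2 (309 ± 18.8 RPKM over the 12 libraries, SD), Rpl4 (272 ± 8.09), Rpl8 (269 ± 20.5) and Rps3a1 (261 ± 19.7). At the low end were Rps15a (8.73 ± 0.732), Rpl13 (11.1 ± 1.14), Rpl7l1 (20.2 ± 2.82) and Rpl27 (20.5 ± 4.59). Of the 79 pairs of neighbours in this order, 76 had libraries that overlapped, so the order is coarse. The authors' exon lengths also shape it. They were a median of 3.20 times the longest coding length in GENCODE M21, and up to 16.1 times in Rps15a. They equalled the joined exons of all transcripts in that annotation for 51 of the 80 genes. Rpl13 overlaps Gm20388 on the same strand, a row with means of 781 exon and 21052 gene reads per library. The part of this overlap in the level of Rpl13 was not tested.

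Many reads of these genes also matched elsewhere in the genome, where ribosomal protein genes have left processed pseudogenes. Uniquely mapped reads made up a median of 59.1% of a member's exon reads, against 100% over all 13185 genes tested. In 35 members (43.8%) the share was under 50%, against 7.12% of all genes tested. Rps12 had 0 uniquely mapped reads of 7669 exon reads, which allows a share of up to 0.0391% by counting error alone. Rps6, whose protein is the substrate of the S6 kinases, had 0.419%, and Rps23, a protein of the decoding centre, 0.809%. At the other end, 14 members had 90% or more, among them Rps3, Rpl22 and Rpl8, and Rpl4 with 99.8%. The share for all members together was the same in every library to within about a percentage point, from 55.7% to 56.7%. How the authors' counting placed the other reads is not given in the sources used here, so the level of a member such as Rps12 is uncertain.

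**Figure D1:**
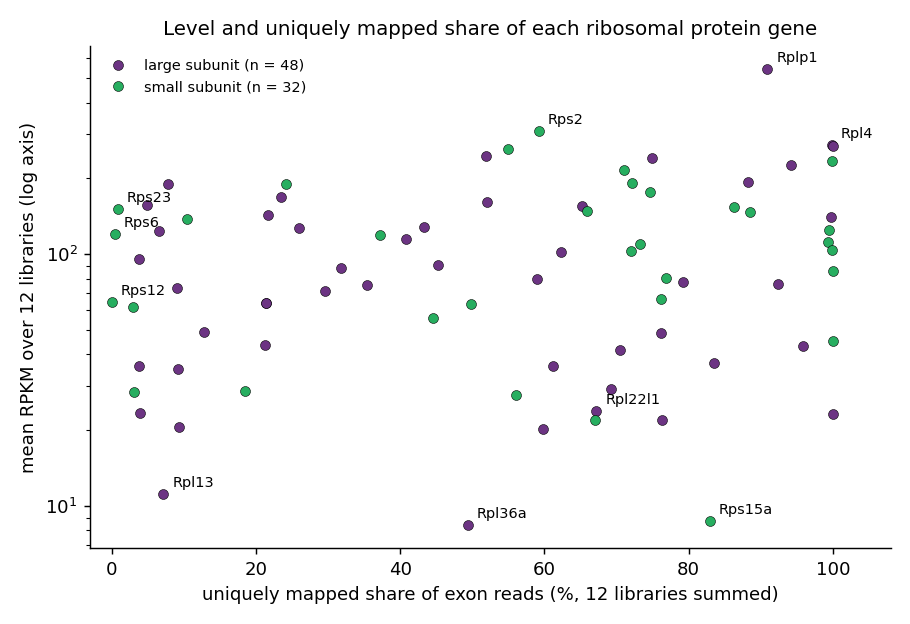
Mean RPKM over 12 libraries (log axis) against the uniquely mapped share of exon reads for the 80 genes, coloured by subunit. Shares run from 0% in Rps12 to 99.8% in Rpl4 and above, and 35 genes lie under 50%.

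Variation between libraries was small. The coefficient of variation of CPM over the 12 libraries had a median of 10.2%, against 10.9% for the 5988 other genes in the same CPM range. Among the steadiest members were Rpl4 (3.81%), Rpl3 (4.31%) and Rpl7 (4.79%). The most variable were Rps12 (23.5%), Rpl27 (21.9%), Rpl36a and Rpl22l1 (20.6%). Large-subunit reads outnumbered small-subunit reads 1.37 to 1.43 times in each library, so the balance of the subunits moved little.

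The 80 genes together held 1.36%, 1.32% and 1.28% of exon reads in ZT2 WT, and 1.30%, 1.34% and 1.29% in ZT2 TG. They held 1.45%, 1.30% and 1.39% in ZT14 WT, and 1.08%, 1.28% and 1.39% in ZT14 TG. The groups overlapped, and replicate 1 of ZT14 TG was the lowest of the 12 libraries. Group means were 1.32% ± 0.0428, 1.31% ± 0.0272, 1.38% ± 0.0732 and 1.25% ± 0.159 (SD, n = 3 each) in that order. In bulk tissue, fewer cells of a type and less RNA per cell cannot be told apart.

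**Figure D2:**
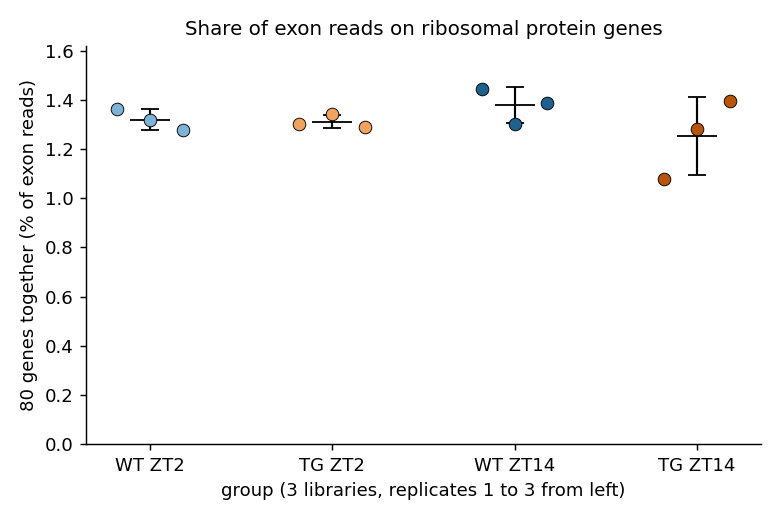
Share of exon reads held by the 80 genes in each library (points, replicates 1 to 3 from left) with the group mean and SD (bars). Replicate 1 of ZT14 TG sits at 1.08%, below the other 11 libraries, which lie between 1.28% and 1.45%.

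ZT14 TG replicate 1 stood apart for these genes. It was the lowest of the 12 libraries for 72 of the 80 members, against 14.5% of all genes tested. Its members had a median log2 deviation of -0.44 from the WT mean at ZT14, whereas replicates 2 and 3 had -0.06 and -0.00. The low values followed coding length. In that library the median log2 deviation from the mean of 12 libraries was -0.49 for the 47 members with a coding length under 500 bases and -0.26 for the 31 members of 500 to under 1000 bases. Other genes moved with them: the median was -0.29 for 717 other genes under 500 bases, -0.09 for 2061 of 500 to under 1000, 0.02 for 3478 of 1000 to under 2000 and 0.08 for 2761 of 2000 bases or more. Short genes less long genes came to -0.37 there and lay between -0.08 and 0.15 in the other 11 libraries. The 77 mitochondrial ribosomal protein genes were also lowest in that library, at 1698 summed CPM against 1963 to 2130 in the others. The part of coding length in the result was not tested. The main counts below that use this library are also given without it.

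**Figure D3:**
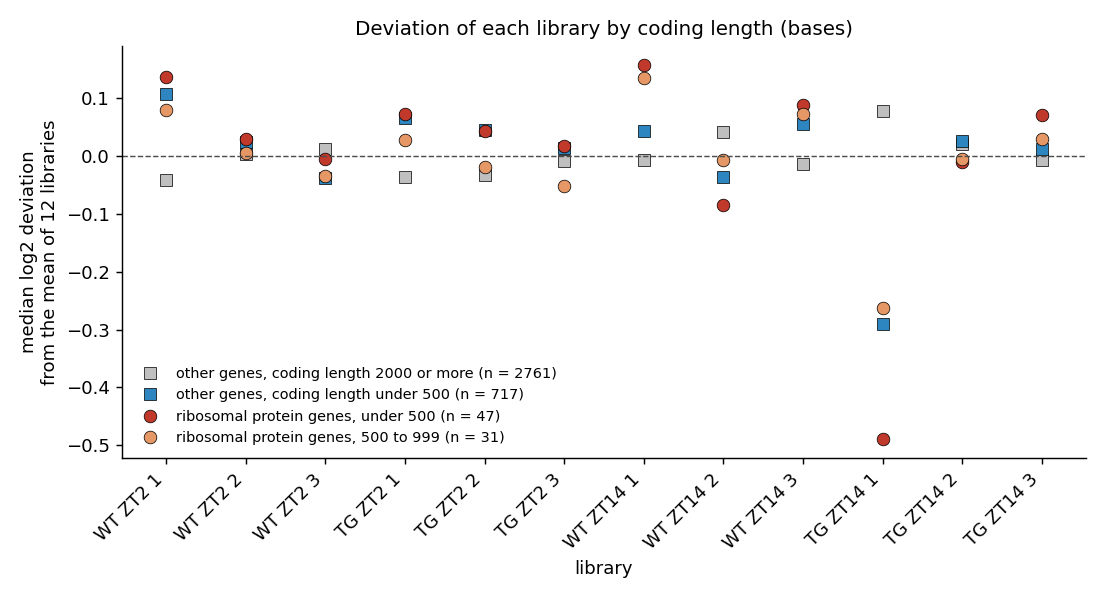
Median log2 deviation of each library from the mean of 12 libraries, for ribosomal protein genes (circles) and other genes (squares) by coding length. In TG ZT14 replicate 1 the short genes of both kinds lie at -0.29 and -0.49, and no other library has a median below -0.09.

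The comparisons that follow share libraries, each group entering more than 1 of them, so their values are given side by side. At ZT2, no ribosomal protein gene differed between TG and WT by edgeR's quasi-likelihood test on exon reads (0 of 80, against 0.0683% of all genes tested). None had an unadjusted p below 0.05 (7.65% of all genes tested), and DESeq2 and limma-voom called 0 as well. The members' median log2 fold change was -0.02, beside -0.00 over all genes tested, and 52 of the 80 lay below 0. This direction turned with 1 library: 26 lay below 0 without ZT2 WT replicate 1 and 67 without replicate 3, with medians from -0.05 to 0.02 over the fits that left out 1 library. The 95% interval of 79 members lay within 1.5-fold in either direction, and that of all 80 within 2-fold. In 4 members, Rps14, Rplp0, Rpl19 and Rplp2, all TG libraries were lower than all WT libraries, against 6.14% of all genes, and in 0 members all were higher, against 6.02%. Rplp0, the stalk base and a common reference gene in quantitative PCR, stood at 455, 441 and 444 CPM in WT and 426, 399 and 416 CPM in TG. Its difference was small, with a log2 fold change of -0.11 (edgeR adjusted p = 0.788, SE 0.07). Rps14, of the platform of the small subunit, stood at 198, 188 and 188 CPM in WT and 175, 169 and 167 CPM in TG, with -0.17 (edgeR adjusted p = 0.686, SE 0.08).

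**Figure D4:**
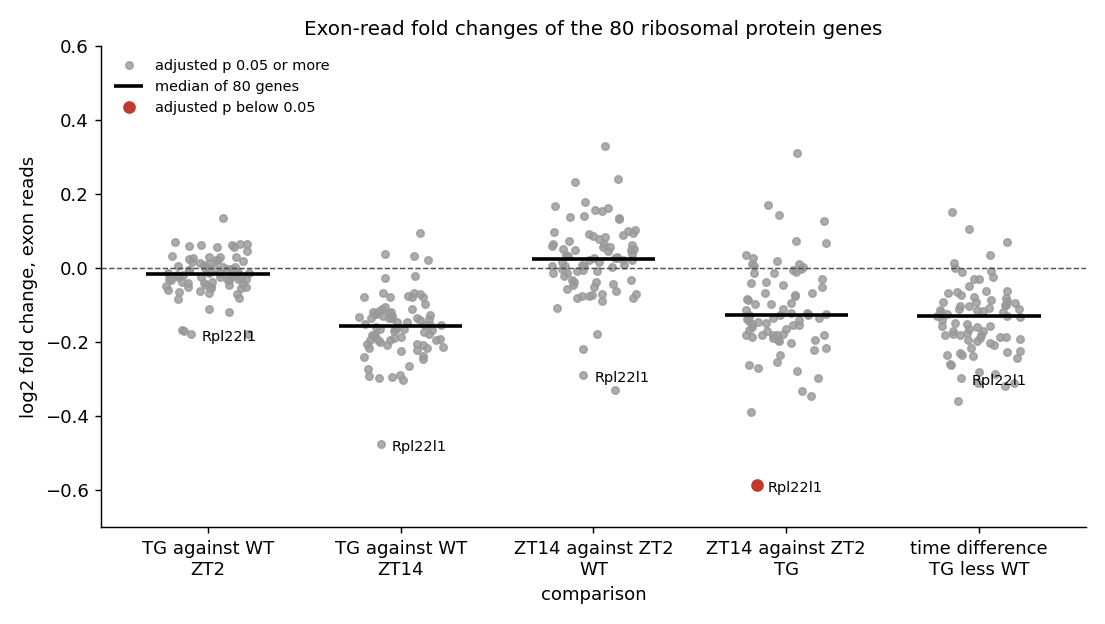
Log2 fold changes of exon reads for the 80 genes (points) in the 5 comparisons, with the median (bar) and genes of adjusted p below 0.05 in red. The medians are -0.02, -0.16, 0.02, -0.13 and -0.13 from left to right, and Rpl22l1 over time in TG is the 1 point past the threshold.

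At ZT14 the members lay mostly lower in TG, by amounts that did not pass the test. The median log2 fold change was -0.16, beside 0.00 over all genes, and 76 of the 80 lay below 0. By edgeR's quasi-likelihood test 0 of 80 were called (0.091% of all genes tested), and 4 had an unadjusted p below 0.05 (8.06%). Limma-voom called 0. DESeq2 called 1, Rpl22l1, among 64 genes it called in all, against 12 by edgeR. Without replicate 1 of ZT14 TG the median was -0.04, 61 members lay below 0 and 2 had an unadjusted p below 0.05. That last count was 11 without replicate 2 and 31 without replicate 3 of ZT14 TG. It was 3, 14 and 2 without ZT14 WT replicates 1, 2 and 3. In each of these fits 0 were called, and their shares of all genes at an unadjusted p below 0.05 are not given here. The intervals of 71 members lay within 1.5-fold, and of 78 without ZT14 TG replicate 1. Groups did not overlap in 12 members, all lower in TG, against 6.83% of all genes (6.46% for higher), and without that replicate also in 12, against 12.4%. ZT2 TG replicate 2 and ZT14 TG replicate 3, the libraries with the highest sums of hepatocyte markers, were also left out together. ZT14 TG then holds only replicates 1 and 2, so replicate 1 weighs more in its group. In that fit 23 members were lower without overlap, against 11.7%.

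Rpl22l1, the paralogue of Rpl22, had the smallest p. It stood at 29.2, 24.8 and 25.7 CPM in WT and at 16.6, 19.5 and 21.2 CPM in ZT14 TG, with no overlap. The log2 fold change was -0.47 (edgeR adjusted p = 0.236, SE 0.11), and DESeq2 gave an adjusted p of 0.0432. Rps2, at the mRNA entry side of the small subunit, stood at 664, 704 and 666 CPM in WT and 555, 591 and 594 CPM in TG. Its log2 fold change was -0.22 (edgeR adjusted p = 0.513, SE 0.08). Rplp0 again had no overlap, at 456, 408 and 437 CPM in WT and 403, 392.2 and 388 CPM in TG, with a log2 fold change of -0.14 (edgeR adjusted p = 0.669, SE 0.07). Rps18, another common reference gene, stood at 210, 173 and 200 CPM in WT and 144, 181 and 185 CPM in TG, where the groups overlapped.

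Over the day in WT liver, between ZT2 and ZT14, 0 of 80 members were called by edgeR's quasi-likelihood test, while 11.1% of all genes tested were. The members' median log2 fold change was 0.02, 51 lay above 0 and 29 below, and 77 intervals lay within 1.5-fold. Here too 1 library turned the direction: 51 lay below 0 without ZT14 WT replicate 1 and 14 without replicate 2, with medians from -0.03 to 0.08 over the fits that left out 1 library. Unadjusted p was below 0.05 in 4 members, against 25.5% of all genes tested, and DESeq2 and limma-voom called 0. Groups did not overlap in 6 members that were higher at ZT14 (Rpl14, Rpl8, Rpl6, Rpl3, Rps6 and Rplp2) and in 2 that were lower (Rpl27a and Rps14), against 16% of all genes in each direction. Rpl14 stood at 113, 112 and 112 CPM at ZT2 and 131, 123 and 127 CPM at ZT14, with a log2 fold change of 0.18 (edgeR adjusted p = 0.121, SE 0.07).

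Rpl27a lay the other way in WT. It stood at 120, 129 and 123 CPM at ZT2 and 110, 89.6 and 96.9 CPM at ZT14. The log2 fold change was -0.33 (edgeR adjusted p = 0.0886, SE 0.11). The gene passed the threshold with the 6 libraries of the comparison alone (adjusted p = 0.0462) and without ZT14 TG replicate 1 (adjusted p = 0.0207), both by edgeR. Only 9.20% of its exon reads mapped uniquely. In TG it stood at 112, 111 and 120 CPM at ZT2 and 82.0, 107 and 114 CPM at ZT14, which overlapped, and the change over time in TG minus the change in WT was 0.15 (edgeR adjusted p = 0.924, SE 0.16).

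In TG liver, 1 of 80 members changed between ZT2 and ZT14, while 13.5% of all genes tested did. This was Rpl22l1, which fell 1.5-fold, and 6.29% of all genes fell. The median of the members was -0.13 on the log2 scale, beside -0.01 over all genes, with 67 below 0. Without replicate 1 of ZT14 TG it was -0.01, with 41 below 0 and Rpl22l1 still the 1 call. Groups did not overlap in 10 members that were lower at ZT14 (14.8% of all genes) and in 2 that were higher (15.7%). Without that replicate the counts were 11 lower (19.2%) and 13 higher (20.4%). Without ZT2 TG replicate 2 and ZT14 TG replicate 3 they were 40 lower (27.2%) and 2 higher (26.6%), with a median of -0.22. In this fit ZT14 TG replicate 1 stays in and weighs more. Unadjusted p was below 0.05 in 5 members, against 28.0% of all genes tested. The count was 22 without ZT14 TG replicate 3, for which the share of all genes is not given here. Of the 80 intervals, 71 lay within 1.5-fold, and 77 without ZT14 TG replicate 1.

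Rpl22l1 (ENSMUSG00000039221, chromosome 3, 28805436 to 28807424, plus strand) stood at 30.8, 29.1 and 26.2 CPM in ZT2 TG and at 16.6, 19.5 and 21.2 CPM at ZT14. Every ZT14 library was below every ZT2 library. The log2 fold change was -0.59 (edgeR adjusted p = 0.00476, SE 0.11). Leaving out any 1 of the 12 libraries kept the call, with -0.67 to -0.51 and edgeR adjusted p up to 0.0229, and with uniquely mapped reads alone (adjusted p = 0.00354). In WT it stood at 32.9, 29.2 and 35.1 CPM at ZT2 and 29.2, 24.8 and 25.7 CPM at ZT14, with a log2 fold change of -0.29 (adjusted p = 0.117, SE 0.11). The change over time in TG minus the change in WT was -0.30 (edgeR adjusted p = 0.838, SE 0.16), so a difference between the genotypes was not shown. Its start, given above, is the one among those matched that has a TATAAA just before it.

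Rpl22, the paralogue that the ribosome usually carries, stood at 85.2, 83.3 and 79.1 CPM in ZT2 TG and 51.6, 73.6 and 71.7 CPM at ZT14. The groups did not overlap, and replicate 1 was far below the other ZT14 libraries. The log2 fold change was -0.33 (edgeR adjusted p = 0.0926, SE 0.12). In WT the libraries were 89.9, 85.9 and 75.7 CPM at ZT2 and 75.7, 67.6 and 72.6 CPM at ZT14. Rpl7l1, a paralogue of Rpl7 known from nucleolar pre-ribosomes, stood at 54.1, 52.4 and 54.8 CPM in ZT2 TG and 69.8, 66.5 and 63.7 CPM at ZT14, with no overlap and with replicate 1 the highest. Its log2 fold change was 0.31 (edgeR adjusted p = 0.0531, SE 0.10). It passed the threshold with uniquely mapped reads (edgeR adjusted p = 0.0273) and in DESeq2 (adjusted p = 0.0384). Rpl7l1 overlaps Gm26904 on the opposite strand, a row with means of 27.4 exon and 2598 gene reads per library. Whether counting used strand is not given in the sources used here. Rplp1 stood at 326, 342 and 304 CPM at ZT2 and 197, 291 and 276 CPM at ZT14, with -0.35 (edgeR adjusted p = 0.0939, SE 0.13).

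**Figure D5:**
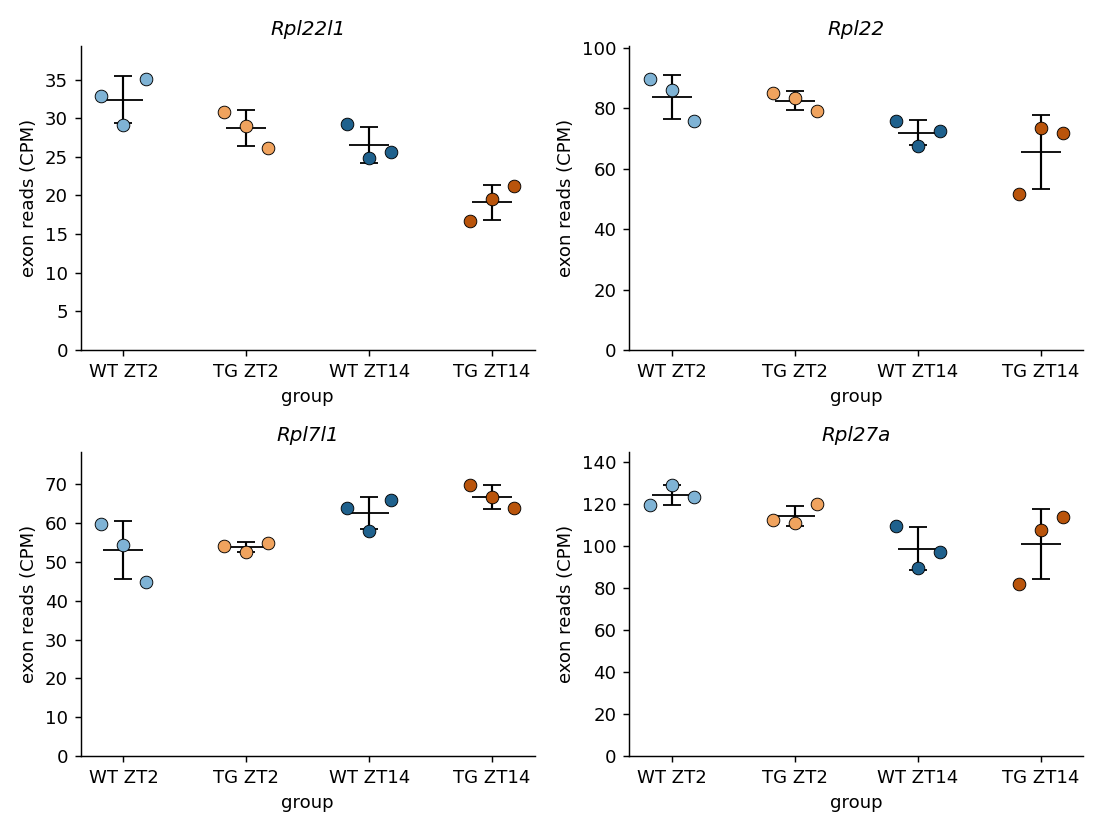
Exon reads (CPM) of 4 members in each library (points, replicates 1 to 3 from left) with group mean and SD (bars). Rpl22l1 lies at 16.6 to 21.2 CPM in ZT14 TG against 26.2 to 30.8 in ZT2 TG, and Rpl7l1 lies at 63.7 to 69.8 against 52.4 to 54.8.

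The change over time in TG minus the change in WT was called for 0 of 80 members by edgeR's quasi-likelihood test (0.00758% of all genes tested). Unadjusted p was below 0.05 in 0 members, against 6.23% of all genes, and DESeq2 and limma-voom called 0. The median was -0.13 with 74 members below 0, and -0.03 with 53 below 0 without ZT14 TG replicate 1. The libraries with the highest sums of hepatocyte markers were ZT2 TG replicate 2 (94876 CPM) and ZT14 TG replicate 3 (97562 CPM), and they held 1.34% and 1.39% of exon reads in these genes. Leaving both out moved the median to -0.22 and that of TG against WT at ZT14 to -0.25, with ZT14 TG replicate 1 kept and weighing more.

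Intron reads, taken here as the unspliced part, were few. Their mean per library was 18.1 for the median member and 100 or more in 1 member, Rps24. Rows named as small nucleolar RNAs overlap 24 members, and 16 members overlap another tested gene, 3 of them on the same strand. The part of such RNAs in the intron reads was not tested. Of the 80 members, 62 had enough for a test. Intervals were wide, with 2 to 5 of the 62 within 1.5-fold in each comparison of a pair of groups. By edgeR's quasi-likelihood test 0 members were called for TG against WT at ZT2 (0.0242% of genes tested) and at ZT14 (0.0323%), for time in WT (1.93%) and for the difference of the time changes (0.0162%). Unadjusted p was below 0.05 in 6, 0, 4 and 3 members in that order, against 10.1%, 4.86%, 15.5% and 6.24% of genes tested. DESeq2 called 0 in each. In TG liver over time 1 member was called (5.64%), Rps18, and the members' median log2 fold change was 0.29, beside 0.01 over all genes, with 48 of 62 above 0. Rps18 was higher, as were 3.06% of all genes. Groups did not overlap in 13 members, all higher at ZT14, against 14.5% of all genes (13.4% for lower). Without ZT2 TG replicate 2 and ZT14 TG replicate 3, 16 were higher (26.1%) and 6 lower (24.1%). The median of the 62 members was then 0.15, with 41 above 0. Without ZT14 TG replicate 1 the counts were 28 higher (19.7%) and 1 lower (18%), with a median of 0.33. Between the genotypes, groups did not overlap in 12 members that were lower in TG at ZT2 (6.76% of all genes) and 0 that were higher (6.95%), and at ZT14 in 2 lower (4.61%) and 1 higher (5.48%), or 3 (9.11%) and 5 (10.4%) without that replicate. Without ZT2 TG replicate 2 and ZT14 TG replicate 3 the ZT14 counts were 10 lower (9.67%) and 1 higher (11.6%). Over time in WT, groups did not overlap in 5 members that were higher (9.86%) and 2 that were lower (9.18%). For TG against WT the members' intron median was -0.22 at ZT2, with 49 of 62 below 0, and -0.020 with library size alone. At ZT14 it was -0.07, with 40 of 62 below 0.

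Rps18 intron reads stood at 11.6, 9.32 and 12.5 CPM in ZT2 TG and 15.6, 24.9 and 22.9 CPM at ZT14. They were 18.5, 23.2 and 20.8 CPM in ZT2 WT and 15.5, 14.9 and 18.7 CPM at ZT14, so ZT2 TG was the low group. The log2 fold change over time in TG was 0.92 (edgeR adjusted p = 0.0332, SE 0.23). By edgeR the call was lost when any 1 of the ZT2 TG libraries or replicate 2 or 3 of ZT14 TG was left out (adjusted p = 0.0669 to 0.134), and without ZT2 TG replicate 2 together with ZT14 TG replicate 3 (adjusted p = 0.240). Rps18 overlaps Vps52 on the opposite strand, and whether counting used strand is not given in the sources used here.

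Exon and intron changes were compared in 1 model for the 62 members. In WT 0 members differed (0.946% of genes tested) by edgeR's quasi-likelihood test, with 4 at an unadjusted p below 0.05 (12.0%). In TG 2 members differed (2.6% of genes tested), both with a lower exon than intron change (1.62%), Rps18 at -1.03 (edgeR adjusted p = 0.0178, SE 0.22) and Rpl22l1 at -1.52 (adjusted p = 0.0410, SE 0.38). Rpl22l1 had 6, 6 and 3 intron reads in ZT2 TG and 13, 8 and 18 at ZT14, beside 14, 9 and 13 in ZT2 WT and 14, 14 and 13 in ZT14 WT. Its difference rested on these few reads. By edgeR it was lost with the replicate block (adjusted p = 0.0520), and without any 1 of the 3 ZT2 TG libraries, the 3 ZT14 WT libraries and replicates 1 and 3 of ZT14 TG, or without both libraries named above (adjusted p = 0.0531 to 0.242). That of Rps18 was lost by edgeR without ZT2 TG replicate 1 or 2, ZT14 TG replicate 2, or both libraries named above, with adjusted p = 0.0666 to 0.155.

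Genes around the family were read from lists chosen for their role. No member of any of these lists was called for genotype or for the difference of the time changes by edgeR, over all genes tested. Over time, 11.1% of all genes tested were called in WT and 13.5% in TG, against which the counts below are to be read. Of 6 ubiquitin-fusion and ribosome-associated genes, 0 were called over time. Rack1, a small-subunit scaffold outside the naming pattern, stood at 252 ± 16.9 CPM in ZT2 WT and 261 ± 9.18 at ZT14 (SD, n = 3 each). Of 26 translation factors and other TOP genes, 2 fell at ZT14 in both genotypes. They were Eif4b, a helicase cofactor, at 245 ± 23.3 and 157 ± 8.43 CPM in WT (log2 fold change -0.64, SE 0.09, adjusted p = 0.000801 by edgeR), and Eif4a2, a helicase, at 205 ± 9.41 and 158 ± 9.83 CPM. Their list had medians of -0.03 in both genotypes over time.

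Of 28 genes of the mTOR and LARP1 pathway, 2 rose and 4 fell at ZT14 in WT, and likewise 2 and 4 in TG (11.1% and 13.5% of all genes were called in either direction). Eif4ebp3, a translation repressor that mTORC1 acts on, rose 2.98-fold in WT from 10.9 ± 4.65 to 32.7 ± 7.81 CPM (SD, n = 3 each) and 4.96-fold in TG from 7.77 ± 4.69 to 38.6 ± 16.4 CPM. Eef2k, the kinase that slows elongation, rose 1.49-fold in WT and 1.63-fold in TG. Sesn3, a stress-induced inhibitor of mTORC1, Tsc1, a subunit of the complex that restrains mTORC1, and Rictor, of mTORC2, fell in both genotypes. Larp1 fell in WT from 177 ± 3.64 to 145 ± 3.12 CPM (log2 fold change -0.28, SE 0.07, adjusted p = 0.0253 by edgeR), and stood at -0.15 (adjusted p = 0.214) in TG. Sesn1 fell in TG.

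Of 17 transcription factors tied to ribosomal protein genes, 3 rose and 2 fell in WT, and 3 rose and 1 fell in TG, beside the same shares of all genes. Max and Mlx, partners in the MYC network, rose in both, and Gabpb1, a subunit of GABP, fell in both. Of 22 import and assembly factors for ribosomal proteins, 1 rose in WT, Bysl, and 6 in TG, among them Bysl, Ipo5, Lsg1, Grwd1 and Rrs1. In either genotype 0 fell. Over all genes, 11.1% in WT and 13.5% in TG were called in either direction, and 6.29% fell in TG. Rrs1, which brings the 5S particle into the large subunit, stood at 15.9 ± 1.26 CPM in ZT2 TG and 26.9 ± 3.02 at ZT14. Of 77 mitochondrial ribosomal protein genes 0 were called in WT and 1, Mrpl54, fell in TG. The medians of that list were 0.00 and -0.09 for TG against WT at ZT2 and ZT14, and 0.02 and -0.10 over time in WT and TG. Without ZT14 TG replicate 1 both medians that use it were -0.00.

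Markers of other liver cell types were summed per library. Summed CPM over 12 Kupffer cell and macrophage markers ran from 555 to 587 in ZT2 WT, 459 to 632 in ZT2 TG, 473 to 574 in ZT14 WT and 432 to 627 in ZT14 TG, with 432 in ZT14 TG replicate 1. The 11 endothelial markers ran from 489 to 589 over all libraries, and no marker of these lists was at 0 in any group. The 11 stellate cell and fibroblast markers ran from 176 to 258 CPM in WT and 221 to 339 CPM in TG, with 11 of 11 above 0 on the log2 scale for TG against WT at ZT2 and 10 of 11 at ZT14, and 0 called by edgeR. At ZT2 the markers tested were also above 0 in TG for 6 of 6 cholangiocyte (median 0.57), 10 of 11 lymphocyte (0.57) and 5 of 5 erythroid genes (0.34), and at ZT14 for 2 of 6 (-0.11), 9 of 11 (0.32) and 4 of 5 (0.79), with 0 called. The 8 cholangiocyte markers ran from 59.8 to 124 CPM, the 14 lymphocyte markers from 19.5 to 33.7, the 10 neutrophil markers from 0.194 to 4.38 and the 7 erythroid markers from 261 to 617. Up to 1 cholangiocyte, 3 neutrophil and 1 erythroid marker were at 0 in a group. By edgeR, 3 of 11 endothelial markers fell at ZT14 in TG (6.29% of all genes fell), and 1 of 11 lymphocyte markers tested fell in each genotype. Both neutrophil markers tested, of 10 listed, fell in WT, where 11.1% of all genes were called in either direction. The neutrophil sums were near the floor, at 0.194 to 0.654 CPM in ZT14 WT with 3 markers at 0. The part of these cells in the results was not tested.

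The read threshold left out 8 rows whose names match the pattern. Rps4l, Rps12l1, Rpl10l, Rps3a3 and Rps3a2 had 0 exon reads, and all but Rpl10l of these have an exon length of 0 in the deposited tables. Rps4l had a mean of 51.6 reads per library counted as intronic. Rpl39l, Rpl3l and Rpl6l, the first a testis-type and the second a muscle-type paralogue, had means of 0.833, 1.08 and 3.33 exon reads. The nearest members inside the threshold were Rpl36a and Rpl22l1, with means of 292 and 489 exon reads.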

How the data were processed

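Poly(A)-selected liver RNA of 12 samples was sequenced, per the labels' protocols. The authors deposited, per the file headers, counts of exon, intron, junction and gene reads with their uniquely mapped parts, and RPKM values. Exon and intron counts sum to gene counts in every row. Builds mm10 and GRCm38 are named in the submitters' processing notes. For the aligner, multiply mapped reads and strand use, nothing is stated: they are not given in the sources used. Deposited exon counts were tested with edgeR 4.0.16 in R 4.3.3 (filterByExpr with a minimum count of 10, TMM, 1 quasi-likelihood model over 4 groups, Benjamini-Hochberg adjusted p below 0.05) on 13185 genes, intron counts on 12380 and both kinds on 10782 with library as a block. SE is the log2 fold change over the root of F. Procedures were tested on simulated data. RPKM serves for levels only. The length check used 9097 genes of at least 5 mean CPM, with 0.5 CPM added before logs.

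Members and gene lists were chosen with earlier results of these data known. Genes named are members with the smallest p per comparison and direction, the extremes of RPKM, uniquely mapped share and threshold, members whose groups do not overlap, listed members with known roles, Nfil3, and up to 4 genes of each other list. Members steadiest or most variable, and called genes beyond 4 of a list, were named after their values were seen, as were the promoters printed. Alternatives were RLE factors, library size alone, TMM without the members, DESeq2 1.42.0, limma-voom 3.58.1, other filters, read kinds and thresholds, fits to 6 libraries, a replicate block and each library left out. The length check and counts without ZT14 TG replicate 1, or without ZT2 TG replicate 2 and ZT14 TG replicate 3, were added after the data were seen.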

Additional observations from a re-analysis of the deposited data

How the results depend on the processing

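No named member past the threshold in any fit changed direction, but medians near 0 changed sign with 1 library left out: from -0.05 to 0.02 for TG against WT at ZT2 and -0.03 to 0.08 for time in WT in exon reads, and -0.21 to 0.01 for TG against WT at ZT14 in intron reads. For exon reads, members called rose from 0 to 1 for TG against WT at ZT14 in DESeq2, where all genes called rose from 12 to 64. For time in WT they rose to 1 with the libraries of the comparison alone, where all genes called went from 1463 to 1492. That count was 0 to 1 over the fits that left out 1 library. For time in TG the count was 2 in place of 1 with library size alone, DESeq2, uniquely mapped reads, a minimum of 1 CPM in 3 samples, gene reads, junction reads or the 6 libraries of the comparison. All genes called in these fits were 1811, 1952, 1749, 1814, 1862, 1178 and 1168 in that order, against 1779 in the main fit. The member count was 0 among members with 1000 or more mean exon reads, and 1 to 2 with 1 library left out. With 1 library left out the exon medians ran from -0.24 to -0.04 for TG against WT at ZT14 and from -0.22 to -0.01 for time in TG. Intron medians moved to -0.020 for TG against WT at ZT2 and 0.38 for time in WT with library size alone, and ran from -0.22 to -0.12 at ZT2 with 1 library left out. Intron calls for time in WT were 2 with library size alone and 1 with no filter beyond 1 read. Intron calls for time in TG were 0 to 1 with 1 library left out, and 0 without ZT2 TG replicate 2 and ZT14 TG replicate 3. For exon less intron in WT, library size alone gave 1 call and a median of -0.33, and leaving out 1 library gave -0.10 to 0.055. In TG the calls were 2, with 0 to 2 when 1 library was left out and 0 without both libraries just named. The cause was not tested. The members' shares of uniquely mapped exon reads were 0.890%, 0.871%, 0.915% and 0.817% in ZT2 WT, ZT2 TG, ZT14 WT and ZT14 TG, lower than of all exon reads because fewer member reads map uniquely.

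Replicate numbers did not pair the libraries: same-numbered deviations correlated at -0.35 to 0.20, and 8 of 24 correlated best with their own number. The replicate block took the exon less intron calls in TG from 2 to 1 and changed no other count of calls. Reads per member, a median of 2691 in exons and 18.1 in introns, limit the precision of intron results. Without a spike-in, the values are relative to the other genes of a library.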
